A study of Homo sapiens with 12 samples.

Results

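The sodium pump and the ion carriers that work with it were followed through 9 genes of ARPE-19 cells, an established line of human retinal pigment epithelium (RPE). They are ATP1B1, ATP1B2, ATP1B3, FXYD5, SLC12A2, SLC4A4, SLC16A1, KCNJ13 and AQP1, found by symbol among the 40591 lines of the count table that carry one. The genes were chosen by their read levels across the 4 groups of libraries, so their own levels are given as a description, without a p-value. Poly(A) RNA was sequenced from 12 libraries, 3 in each of 4 groups. WT cells have no named insert, GFP cells carry green fluorescent protein as the control open reading frame (ORF), GSTA4 cells carry glutathione S-transferase alpha 4, and OSK cells carry a set read here as POU5F1 (OCT4), SOX2 and KLF4. Stable lines were sampled on day 4 of ORF expression. Promoter, vector and number of clones are not given in the sources used here, nor is the origin of the replicates, so p-values measure only the spread between these libraries, which may be technical. The ORF and any other difference between the lines cannot be told apart. In whole-culture RNA, fewer cells of a type and less RNA per cell cannot be told apart either.

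The sodium pump (Na,K-ATPase) moves sodium out of and potassium into the cell at the cost of ATP. Its alpha subunit carries the catalytic site and its beta subunit, a glycoprotein, brings the alpha subunit to the membrane. Small FXYD proteins bind the pump and tune it. In RPE the pump sits in the apical membrane, facing the photoreceptors, where most epithelia have it on the opposite side. The gradient it makes drives chloride uptake by SLC12A2 (NKCC1) and bicarbonate uptake by SLC4A4 (NBCe1). KCNJ13 (Kir7.1) recycles potassium at the apical face, SLC16A1 (MCT1) carries lactate out of the subretinal space, and AQP1 is a water channel.

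The 3 beta subunit genes encode alternative forms of the same pump subunit, and their levels ran differently across the groups. The bases before their start sites are shown as a description. Each is the 250 bases upstream of the RefSeq start on GRCh38.p14, plus strand, with GC boxes (GGGCGG on either strand) in capitals. ATP1B1 lies at chr1:169106690-169132719, ATP1B2 at chr17:7646627-7657770 and ATP1B3 at chr3:141876643-141926549.
ATP1B1, chr1:169106440-169106689: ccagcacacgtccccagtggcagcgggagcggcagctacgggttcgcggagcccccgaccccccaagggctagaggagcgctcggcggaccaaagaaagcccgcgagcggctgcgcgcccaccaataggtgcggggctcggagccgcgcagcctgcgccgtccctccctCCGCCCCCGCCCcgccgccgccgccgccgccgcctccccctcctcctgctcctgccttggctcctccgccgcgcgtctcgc
ATP1B2, chr17:7646377-7646626: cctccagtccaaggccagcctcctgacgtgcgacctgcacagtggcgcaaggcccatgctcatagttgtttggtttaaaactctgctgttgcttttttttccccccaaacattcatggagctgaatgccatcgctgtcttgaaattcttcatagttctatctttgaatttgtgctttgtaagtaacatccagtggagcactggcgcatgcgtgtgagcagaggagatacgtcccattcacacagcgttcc
ATP1B3, chr3:141876393-141876642: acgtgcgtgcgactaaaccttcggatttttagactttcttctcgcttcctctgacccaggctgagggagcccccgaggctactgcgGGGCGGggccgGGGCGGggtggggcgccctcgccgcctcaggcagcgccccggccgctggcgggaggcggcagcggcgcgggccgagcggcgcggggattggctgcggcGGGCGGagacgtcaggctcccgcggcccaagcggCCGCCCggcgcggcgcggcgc
The ATP1B1 and ATP1B3 stretches had a GC content of 77.6% and 77.2%, with 35 and 39 CpG dinucleotides. The ATP1B2 stretch had a GC content of 49.2% and 8 CpG, where the medians over 27305 promoter stretches of this length were 58% and 11. GC boxes matched 2 times in ATP1B1, 4 times in ATP1B3 and 0 times in ATP1B2, and 42.3% of all stretches held a match. The octamer ATGCAAAT (in 1.66% of all stretches), the antioxidant element core TGACNNNGC (11%), the AP-1 site TGACTCA (4.16%), TATAAA (11.1%) and the E-box CACGTG (6.49%) had no match in these 3 stretches on either strand. The antioxidant core can overlap an AP-1 site. The files do not show which start site these cells use, and the matches describe letters only.

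The libraries held 12630675 to 17045454 counted reads. A gene with 0 reads could still have had up to 3, or 0.177 to 0.24 CPM before TMM scaling. CPM are reads of a gene set to the same sum of reads in every library. Elsewhere CPM are after TMM scaling, which also adjusts those sums. GFP replicate 1 had reads on 27349 named genes, where the other 11 libraries had reads on 19488 to 22073. GSTA4 was at 396 to 431 CPM in its own group and at 4.42 to 22.5 elsewhere. POU5F1, SOX2 and KLF4 were at 623 to 949 CPM in OSK and at 0 to 2.67 elsewhere, so each ORF was highest in the group named for it. Of 16 RPE markers, 11 passed the filter on low counts and PMEL was the highest. RPE65 stayed at a mean of 0.0229 to 0.495 CPM in the 4 groups, and TTR at 0 to 0.114. The summed RPE markers ran from 767 to 983 CPM for WT, 1164 to 1381 for GFP, 631 to 742 for GSTA4 and 766 to 801 for OSK. The 12 fibroblast markers summed to 806 to 817, 746 to 817, 580 to 612 and 371 to 425 CPM in the same order, with LUM at 0. Of these, 5 passed the filter, 3 had at most 3 reads in every library, and PDGFRB was the highest. Photoreceptor markers summed to at most 24.1 CPM and pluripotency markers other than the ORFs to at most 2.43.

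Of the 9 genes, 7 passed the filter and entered the fit of all 15179 tested genes by edgeR's quasi-likelihood test, where a gene was called at a Benjamini-Hochberg adjusted p under 0.05. In GSTA4 against GFP 3 were called higher and 1 lower, beside 29.2% of all genes called (14.7% higher, 14.6% lower). In OSK against GFP 1 was higher and 1 lower, beside 45.9% (23.1% and 22.8%). In GFP against WT 0 were higher and 1 lower, beside 22.2% (11% and 11.2%), and in OSK against GSTA4 2 were higher and 3 lower, beside 47.8% (24.1% and 23.8%). Nothing is read from these counts, since the same contrasts chose the genes. Leaving out each library in turn gave 3 to 6 called genes in GSTA4 against GFP, 1 to 5 in OSK against GFP, 1 to 4 in GFP against WT and 4 to 5 in OSK against GSTA4. The count in OSK against GFP was 5 without WT replicate 1, 4 without GFP replicate 2, and 1 without GFP replicate 3 or OSK replicate 3. For GFP against WT it was 4 without WT replicate 3 and 3 without WT replicate 2. It was 2 there without WT replicate 1, GFP replicate 2 or any single GSTA4 or OSK library. KCNJ13 also passed the filter, making 8 tested, in each of these repeats except those without GFP replicate 1 or 3. All called genes in these repeats ran from 3459 to 5064, 6188 to 7569, 2267 to 3297 and 6452 to 7727 in the order above. The genes tested were 15476 to 15690. The contrasts with GFP share the GFP libraries.

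**Figure D1:**
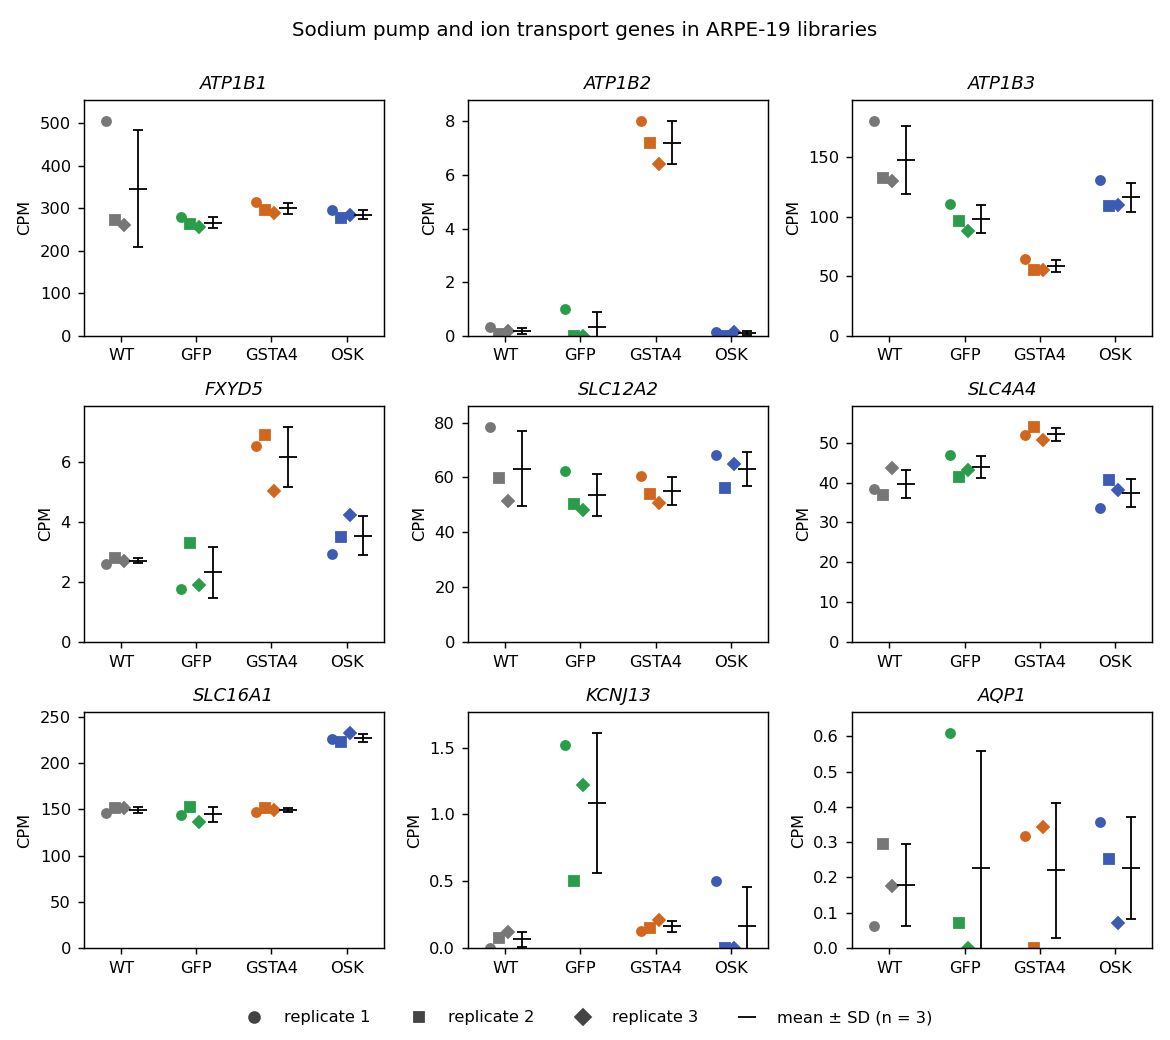
Read level in CPM (linear axes from 0, a different range in each panel) of the 9 genes in each library, with circles, squares and diamonds for replicates 1, 2 and 3 and bars for the mean and SD of 3 libraries. ATP1B2 and FXYD5 were highest in the 3 GSTA4 libraries, ATP1B3 was lowest there, SLC16A1 was highest in OSK, and ATP1B1 had its highest value in WT replicate 1.

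ATP1B2, the beta subunit best known from glia and neurons, had at most 13 reads in the 9 libraries outside the GSTA4 group and at least 93 in each GSTA4 library. It had 126, 96 and 93 reads in the GSTA4 libraries, which is 8.01, 7.21 and 6.40 CPM. WT had 5, 1 and 3 reads, OSK 2, 0 and 2, and GFP 13, 0 and 0. The GSTA4 libraries therefore overlapped no other library, while WT, GFP and OSK overlapped each other. All 13 GFP reads came from GFP replicate 1, the library with reads on the most genes. GSTA4 stood at 7.20 CPM ± 0.804 (SD, n = 3), at least 35.2-fold above OSK when OSK is set to 3 reads per library. The fitted log2 fold change against GFP was 4.48 (SE 0.602), and 9.74 without GFP replicate 1, where it depends on the prior count of the model.

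ATP1B3, a beta subunit found in many tissues, ran the other way. The GSTA4 libraries had 64.5, 55.5 and 55.5 CPM and the GFP libraries 111, 96.3 and 87.7. OSK had 131, 109 and 109.7, and WT 180.4, 132 and 130. The 3 GSTA4 libraries lay below all others. In rising order the means were 58.5 CPM ± 5.17 in GSTA4, 98.2 ± 11.6 in GFP, 117 ± 12.2 in OSK and 148 ± 28.5 in WT. GFP and OSK overlapped, and so did OSK and WT, while the GFP libraries all lay below those of WT. The log2 fold change was -0.74 (SE 0.114) in GSTA4 against GFP, -0.59 (SE 0.11) in GFP against WT and 0.99 (SE 0.114) in OSK against GSTA4. Without WT replicate 1 the value in GFP against WT was -0.42.

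ATP1B1, the common beta subunit of epithelia, differed little between the groups apart from a single library. The WT libraries had 505, 273 and 261 CPM and the GFP libraries 280.1, 264 and 255. GSTA4 had 314, 296 and 290.1, and OSK 295, 276 and 285. WT replicate 1 stood far above the other 11 libraries, and groups next to each other in mean level overlapped, while the GSTA4 libraries all lay above those of GFP. The log2 fold change in GFP against WT was -0.38 (SE 0.153), and -0.01 without WT replicate 1. For GSTA4 against GFP it was 0.17 (SE 0.153) and in OSK against GFP 0.10 (SE 0.153). These SE come from the fit of all 12 libraries, so they take in the spread from WT replicate 1. WT replicate 1 was also the highest of the 12 libraries for ATP1B3 and SLC12A2. Of the exon bases of ATP1B1, 192 are shared with NME7 on the opposite strand in GENCODE 29, and NME7 had 199 to 316 reads per library.

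Per kilobase of exon, ATP1B1 was the most abundant beta subunit in every library. It made up 66.3% ± 4.04 of the summed beta subunit level in WT libraries, 70.3% ± 1.54 in those of GFP, 80.3% ± 0.757 in those of GSTA4 and 68.2% ± 1.61 in those of OSK (SD, n = 3). ATP1B3 made up 33.7% ± 4.04, 29.6% ± 1.42, 17.9% ± 0.693 and 31.8% ± 1.61 in the same order. ATP1B2 reached 1.74% ± 0.116 in GSTA4 and at most 0.219% in any other library. The ratio of ATP1B3 to ATP1B1, which no library scaling can move, was 0.235, 0.215 and 0.219 in the GSTA4 libraries and 0.394 to 0.571 in the other 9. With the longest coding transcript as the length, ATP1B3 held 21.6% in GSTA4 and 34.6% in GFP. The summed beta level was 126 CPM per kilobase ± 6.40 in GSTA4, 128 ± 8.93 in GFP, 142 ± 7.76 in OSK and 174 ± 57.5 in WT, and GSTA4 overlapped GFP.

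**Figure D2:**
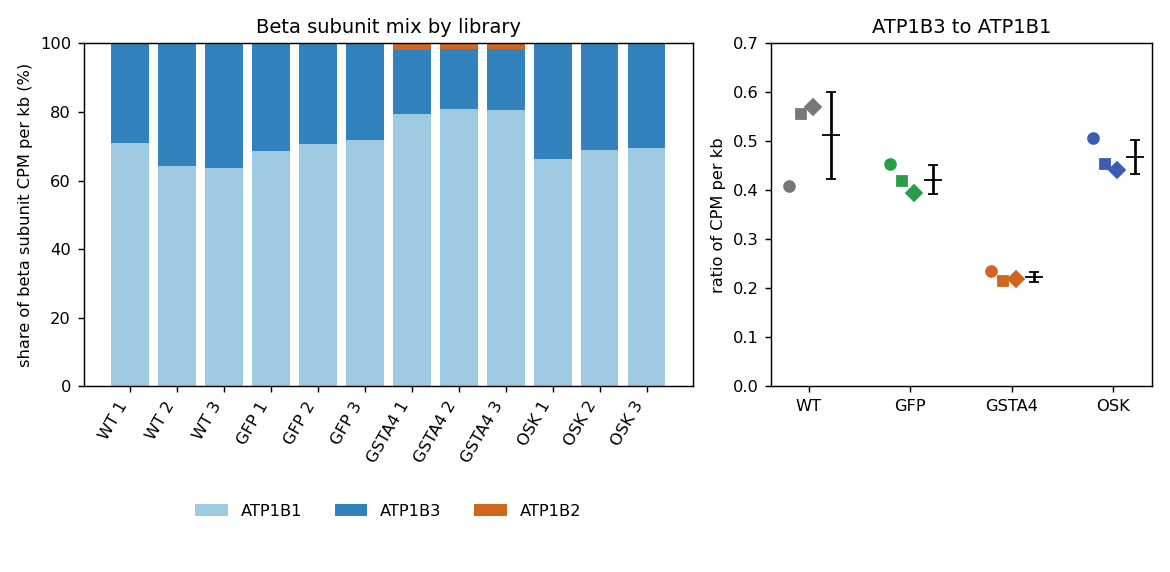
Left, share (%) of each beta subunit gene in the summed CPM per kilobase of exon of ATP1B1, ATP1B2 and ATP1B3 in each library. Right, ratio of ATP1B3 to ATP1B1 on the same scale, with circles, squares and diamonds for replicates 1, 2 and 3 and bars for the mean and SD of 3 libraries; the GSTA4 libraries sit at 0.215 to 0.235, below the other 9.

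FXYD5 (dysadherin), a regulator that associates with the pump and is known from epithelial and carcinoma cells, was low in level and highest in GSTA4. It had 6.55, 6.91 and 5.02 CPM in GSTA4, from 103, 92 and 73 reads. The levels were 2.92, 3.48 and 4.22 in OSK, 2.61, 2.79 and 2.71 in WT, and 1.75, 3.30 and 1.90 in GFP. The GSTA4 libraries lay above all others and the OSK libraries above those of WT, while GFP overlapped both WT and OSK. The log2 fold change was 1.41 (SE 0.251) in GSTA4 against GFP and -0.80 (SE 0.237) in OSK against GSTA4. In OSK against GFP it was 0.61 (SE 0.263), and 0.96 without GFP replicate 2, the GFP library with the most FXYD5 reads. The other 6 FXYD genes had 0 to 7 reads in any library. All 6 had reads in the GFP group, each in a single library, and none in GSTA4 or OSK. For FXYD2, FXYD6 and FXYD7 that library was GFP replicate 1, at 7, 2 and 6 reads. FXYD5 was thus the member of its family detected above the floor in all 12 libraries.

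SLC12A2 brings sodium, potassium and chloride into the cell together and supplies the chloride that RPE moves across its basal side. The OSK libraries had 68.3, 56.0 and 64.7 CPM and the WT libraries 78.3, 59.9 and 51.5. GFP had 62.4, 50.4 and 48.2, and GSTA4 60.4, 54.0 and 50.6. All 4 groups overlapped. Its log2 fold changes were 0.04 (SE 0.125) in GSTA4 against GFP, 0.23 (SE 0.125) in OSK against GFP and -0.24 (SE 0.124) in GFP against WT, and the last was -0.06 without WT replicate 1.

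SLC4A4 takes up sodium with bicarbonate. It had 51.9, 53.9 and 50.7 CPM in GSTA4, 46.9, 41.5 and 43.2 in GFP, 38.5, 37.0 and 43.6 in WT, and 33.5, 40.6 and 38.1 in OSK. The GSTA4 libraries were the highest. OSK overlapped WT and WT overlapped GFP, while the OSK libraries all lay below those of GFP. The log2 fold change was 0.25 (SE 0.0849) in GSTA4 against GFP, -0.23 (SE 0.0865) in OSK against GFP and -0.48 (SE 0.0855) in OSK against GSTA4. These are folds of 1.19, 0.854 and 0.718.

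SLC16A1 carries lactate and pyruvate with a proton. It had 227, 223 and 232 CPM in OSK, while the other 9 libraries lay between 137 and 153. WT, GFP and GSTA4 overlapped, at 149.5 ± 2.96, 145 ± 8.05 and 149 ± 1.92 CPM. OSK stood at 227 ± 4.67, a log2 difference of 0.65 (SE 0.0553) against GFP and 0.61 (SE 0.0551) against GSTA4. The antisense gene SLC16A1-AS1 shares 175 exon bases with it and had 53 to 148 reads per library, where SLC16A1 had 1895 to 3522.

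KCNJ13, the apical potassium channel that marks mature RPE, was close to the floor. It had 20, 7 and 18 reads in GFP, 0, 1 and 2 in WT, 2, 2 and 3 in GSTA4, and 7, 0 and 0 in OSK. In CPM these were 1.52, 0.502 and 1.22 in GFP and at most 0.498 in any other library. All 3 GFP libraries held more than those of WT and GSTA4. The GFP mean, 1.08 CPM, was at least 5.56-fold above WT and 5.22-fold above GSTA4, with the lower group set to 3 reads per library. KCNJ13 did not pass the filter. The gene lies within GIGYF2 and shares 722 exon bases with it on the opposite strand, and 271 with AC064852.1 on its own strand. GIGYF2 had 1865 to 2722 reads per library, and without a stated strand the reads of the pair cannot be told apart in that stretch. The GFP group also had the highest summed RPE markers, a parallel whose part in the KCNJ13 level was not tested.

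AQP1 had 8, 1 and 0 reads in GFP, 5, 0 and 5 in GSTA4, 5, 4 and 1 in OSK, and 1, 4 and 3 in WT. The groups overlapped, with means from 0.178 to 0.227 CPM, and no difference was detectable at this depth. In GENCODE 29, 910 exon bases of AQP1 are shared with AC004691.2 on the same strand, where the counting may have split or dropped reads. Of the 12 other aquaporins, AQP11, which sits in inner membranes of the cell, passed the filter. AQP11 fell in GSTA4 against GFP, with a log2 difference of -1.08 (adjusted p 0.000112, SE 0.181), and in OSK against GFP, with -0.91 (adjusted p 0.000284, SE 0.178).

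The other genes of ion and solute transport were taken from hand-written lists of 189 genes, of which 114 passed the filter. All lists, those of cell markers included, were written with earlier results of these data known. Their shares beside those of all genes are therefore a description. In GSTA4 against GFP 35 were called, 13 higher and 22 lower, or 30.7% of those tested beside 29.2% of all genes. In OSK against GFP 73 were called, 42 higher and 31 lower (64% beside 45.9%). In GFP against WT 30 were called, 12 higher and 18 lower (26.3% beside 22.2%). In OSK against GSTA4 70 were called, 45 higher and 25 lower (61.4% beside 47.8%). Median log2 fold changes of the 114 genes were -0.03, 0.12, -0.03 and 0.04 in these contrasts, where those of all genes were 0.01, -0.02, 0.01 and -0.01. With library size alone as the scaling, 39.8% of all calls in OSK against GFP were higher rather than 50.4%, and for the transport genes 52.9% rather than 57.5%.

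**Figure D3:**
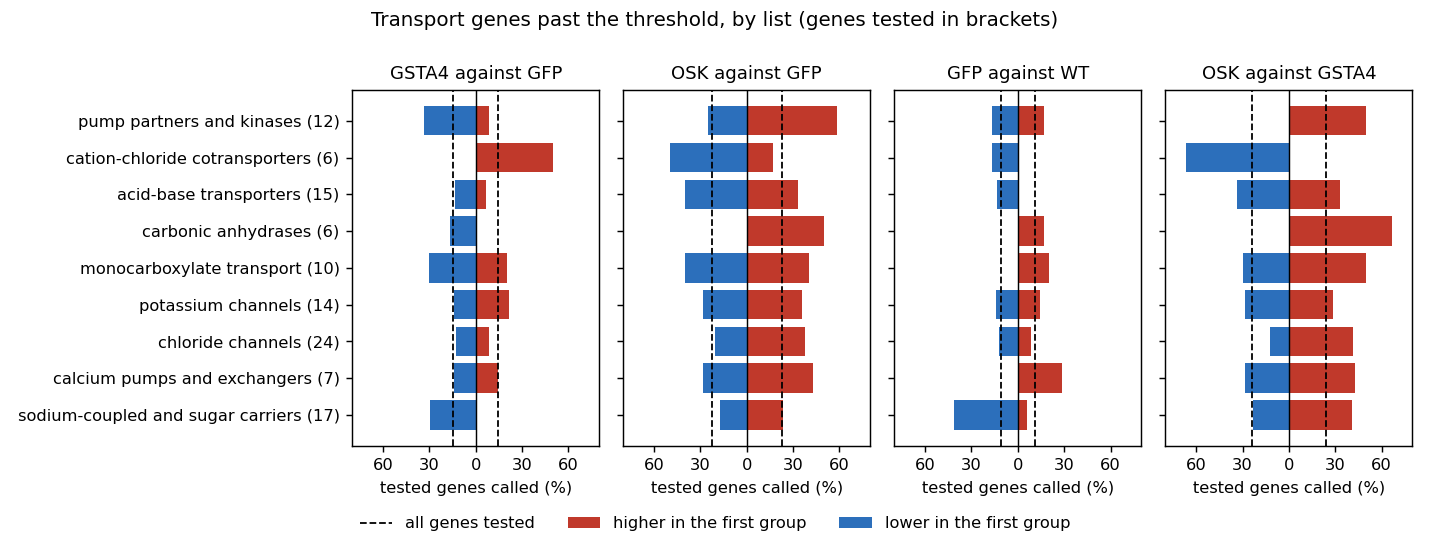
Share (%) of the tested genes of each transport list that were called higher (red, right of 0) or lower (blue, left of 0) in the first group of each contrast, without the 9 chosen genes; dashed lines give the same share among all 15179 genes tested, and the genes tested per list are in brackets. The lists of sodium pump subunits, FXYD genes and aquaporins, with 2, 0 and 1 tested genes outside the chosen ones, are not drawn. In OSK against GSTA4 the cation-chloride cotransporters were called lower in 4 of 6 genes and the carbonic anhydrases higher in 4 of 6. Among all genes tested in that contrast, 23.8% were called lower and 24.1% higher. The acid-base transporters (5 higher, 5 lower) and potassium channels (4 and 4) were called equally often either way.

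Among the relatives of SLC12A2 are potassium-chloride cotransporters, which let chloride out. SLC12A4 (KCC1), a member of that group, was highest in GSTA4 and lowest in OSK. It had 334 CPM ± 6.89 in GSTA4, 265 ± 7.77 in GFP, 270.4 ± 14.3 in WT and 200.5 ± 9.27 in OSK (n = 3 each). SLC12A4 rose by 0.34 in GSTA4 against GFP (edgeR adjusted p 0.000152, SE 0.0579) and had a log2 difference of -0.40 in OSK against GFP (adjusted p 1.02e-05, SE 0.0584). SLC12A7 fell in OSK against GFP, by 0.42 (adjusted p 0.000194, SE 0.0797). Over the list, 3 of 6 tested genes rose in GSTA4 against GFP and 0 fell (50% called beside 29.2% of all genes), while 1 rose and 3 fell in OSK against GFP (66.7% beside 45.9%). The call of SLC12A9 in GSTA4 against GFP (0.23, adjusted p 0.0442) was lost with DESeq2, with the filter at a mean of 1 CPM, and without any of GFP replicates 1 and 2, GSTA4 replicates 1 and 2 or OSK replicates 1 and 3. Its value was lowest without GFP replicate 1, at 0.18 (adjusted p 0.175).

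Of 12 tested kinases and partners of the pump and these carriers, 7 rose and 3 fell in OSK against GFP (83.3% called beside 45.9% of all genes). SGK1, a kinase that promotes sodium transport, reached 63.2 CPM ± 3.31 in OSK beside 26.4 ± 2.35 in GFP, a log2 difference of 1.26 (adjusted p 5.14e-11, SE 0.0791). Per kilobase of exon, WT lay between them, at 3.91 CPM ± 0.0354 beside 2.64 ± 0.236 in GFP and 6.32 ± 0.332 in OSK. SGK1 was also called lower in GFP against WT, with a log2 difference of -0.56. STK39 (SPAK), which phosphorylates and activates SLC12A2, was at 50.5 ± 1.94 and 22.6 ± 0.400, a change of 1.16 (adjusted p 3.22e-09, SE 0.0954). AGRN, a basement membrane proteoglycan that can bind the pump, rose by 1.00 (adjusted p 2.15e-09, SE 0.0798). In GSTA4 against GFP 1 rose and 4 fell (41.7% beside 29.2%), among them WNK2 at -0.42 (adjusted p 0.000106, SE 0.0704), while OXSR1, the close relative of STK39, rose by 0.33 (adjusted p 0.000253, SE 0.0602).

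Of 15 tested acid-base transporters beside SLC4A4, 5 rose and 6 fell in OSK against GFP (73.3% called beside 45.9% of all genes). SLC4A3, a chloride-bicarbonate exchanger, had 18.6, 19.5 and 20.0 CPM in OSK and 55.3 to 72.7 in the other 9 libraries, a log2 difference of -1.59 against GFP (adjusted p 2.15e-11, SE 0.0943). SLC4A7, a sodium-bicarbonate cotransporter, rose by 0.86 (adjusted p 8.41e-09, SE 0.0757) and SLC26A6, an anion exchanger, by 0.78 (adjusted p 1.24e-06, SE 0.0973). For GSTA4 against GFP 1 rose and 2 fell (20% beside 29.2%).

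CA9, a carbonic anhydrase of the cell surface known as a hypoxia-induced gene, was spread widely over the groups. The GSTA4 libraries had 5.02, 5.55 and 5.44 CPM and the WT libraries 10.3, 11.7 and 12.6. GFP had 35.3, 29.5 and 40.4, and OSK 36.6, 54.4 and 41.7. GSTA4 was the lowest group, WT came next, and GFP and OSK overlapped. Its log2 fold change was -2.72 in GSTA4 against GFP (adjusted p 4.14e-11, SE 0.158) and 1.61 in GFP against WT (adjusted p 1.37e-07, SE 0.141). In OSK against GFP the value was 0.34 (adjusted p 0.0356, SE 0.127), and 0.16 (adjusted p 0.317) without OSK replicate 2. The mitochondrial CA5B was at 35.6 CPM ± 4.30 in OSK and 6.27 ± 0.307 in GFP (2.50, adjusted p 1.18e-11, SE 0.143).

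Around SLC16A1, the chaperones that bring monocarboxylate carriers to the membrane were also higher in OSK. BSG (basigin) rose from 1666 CPM ± 150.2 in GFP to 2167 ± 142 (log2 fold change 0.38, adjusted p 0.000115, SE 0.0681) and EMB (embigin) from 80.6 ± 6.30 to 132 ± 11.9 (0.71, adjusted p 5.3e-07, SE 0.0826). SLC16A12, a creatine carrier of the same family, fell from 37.0 ± 2.35 to 10.3 ± 2.06 (-1.84, adjusted p 4.8e-11, SE 0.115). Over the list of 10 tested, 4 rose and 4 fell in OSK against GFP (80% called beside 45.9% of all genes), and 2 rose and 3 fell in GSTA4 against GFP (50% beside 29.2%). SLC16A8 (MCT3), the basolateral lactate carrier typical of RPE, had 2.36, 2.08 and 3.94 CPM in GFP and 0.249, 0.881 and 0.826 in WT, a log2 difference of 2.10 (adjusted p 0.00202, SE 0.442).

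BEST1 (bestrophin), a chloride channel of the basolateral membrane, had its highest level in GFP. It had 6.84, 9.46 and 9.65 CPM in GFP, 4.80 to 5.72 in GSTA4, 2.54 to 3.67 in WT and 2.41 to 3.20 in OSK. It rose in GFP against WT by 1.56 (adjusted p 2.56e-05, SE 0.209). Its log2 fold change in GSTA4 against GFP was -0.68 (adjusted p 0.0122, SE 0.196), a call lost without GFP replicate 2 or 3 or GSTA4 replicate 2 (adjusted p up to 0.0586). Of 11 tested RPE markers, a list without BEST1, 8 rose and 0 fell in GFP against WT (72.7% called beside 22.2% of all genes). For GSTA4 against GFP 1 rose and 7 fell (72.7% beside 29.2%), and for OSK against GFP 2 rose and 8 fell (90.9% beside 45.9%). Their part in the BEST1 level was not tested.

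KCNK1, a leak-type potassium channel, stood high in OSK and low in GSTA4. It had 81.7, 78.2 and 72.8 CPM in OSK, 30.8, 28.9 and 35.0 in GFP, 21.8, 28.7 and 29.4 in WT, and 7.12, 8.33 and 7.43 in GSTA4. The log2 fold change was 3.35 in OSK against GSTA4 (adjusted p 3.58e-15, SE 0.119), 1.30 in OSK against GFP (adjusted p 1.5e-09, SE 0.101) and -2.05 in GSTA4 against GFP (adjusted p 6.78e-11, SE 0.124). KCNQ5, a voltage-gated channel, ran the other way, with 8.74 CPM ± 0.909 in GSTA4, 2.37 ± 0.204 in GFP and 1.27 ± 0.734 in OSK. KCNQ5 rose in GSTA4 against GFP by 1.88 (adjusted p 2.55e-05, SE 0.276). Per kilobase of exon, WT stood at 0.616 CPM ± 0.138, between 1.155 ± 0.12 in GSTA4 and 0.313 ± 0.0269 in GFP. The log2 fold change of KCNQ5 was -0.97 in GFP against WT. In OSK against GFP it was -0.88, and -0.47 (adjusted p 0.209) without OSK replicate 1. Of 14 tested potassium channel genes, 3 rose and 2 fell in GSTA4 against GFP (35.7% called beside 29.2% of all genes), and 5 rose and 4 fell in OSK against GFP (64.3% beside 45.9%). Of 24 tested chloride channel genes, 9 rose and 5 fell in OSK against GFP (58.3% beside 45.9%), among them CLCN2, a voltage-gated channel, at 34.4, 32.5 and 29.3 CPM in OSK and 10.9, 8.17 and 8.56 in GFP (1.80, adjusted p 6.65e-10, SE 0.134).

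Of 17 tested carriers that use the sodium gradient or carry glucose, 0 rose and 5 fell in GSTA4 against GFP, a share of 29.4% beside 29.2% of all genes. SLC2A1 (GLUT1), the main glucose carrier of RPE, had 758, 669.9 and 619 CPM in GSTA4, 1438, 1476 and 1477 in GFP, 2074, 1768 and 1716 in WT, and 3632, 3066 and 3000 in OSK. No 2 groups overlapped. Its log2 fold change was -1.10 in GSTA4 against GFP (adjusted p 3.94e-09, SE 0.0863) and 1.14 in OSK against GFP (adjusted p 8.22e-10, SE 0.086). In GFP against WT 1 gene of the list rose and 7 fell (47.1% beside 22.2%). SLC5A3, the sodium-driven myo-inositol carrier, had 1852, 578 and 565 CPM in WT, so that WT replicate 1 again stood apart, and 455, 321 and 337.5 in GFP. Its log2 fold change was -1.43 (adjusted p 0.00156, SE 0.291), and -0.63 without WT replicate 1. The taurine carrier SLC6A6 had 86.6, 60.9 and 61.9 CPM in WT and 27.5 to 37.5 in GFP (-1.18, adjusted p 0.000144, SE 0.187).

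**Figure D4:**
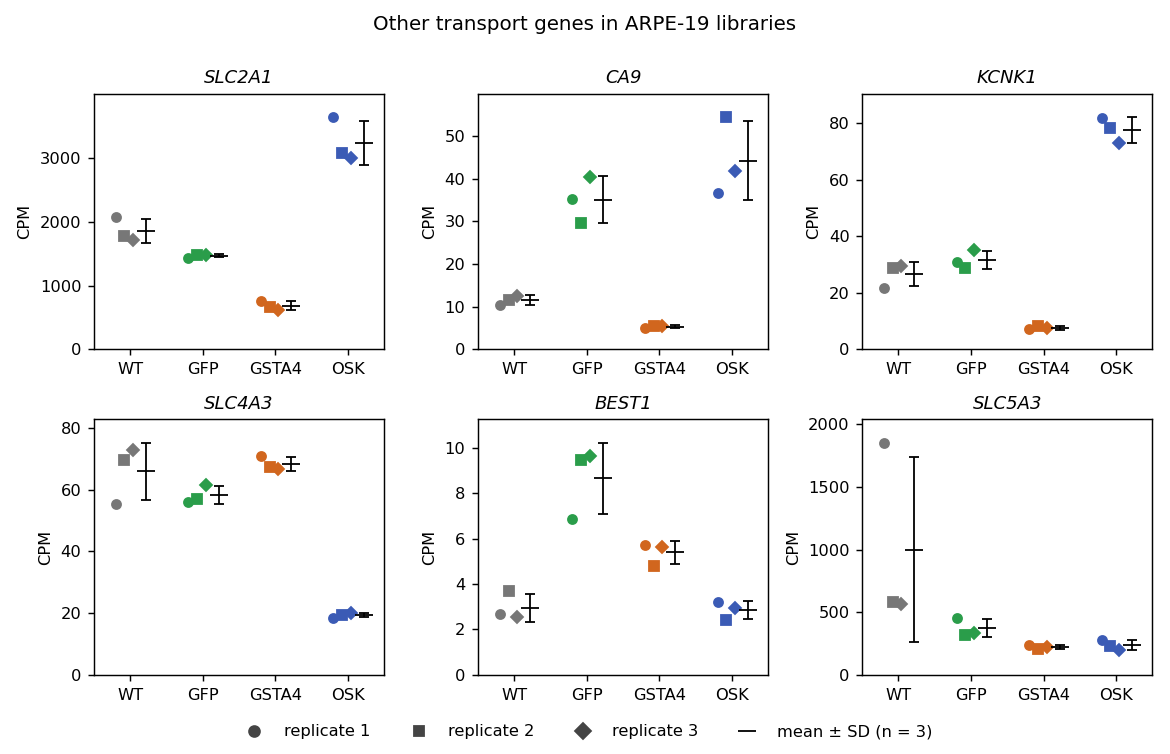
Read level in CPM (linear axes from 0, a different range in each panel) of 6 other transport genes in each library, with circles, squares and diamonds for replicates 1, 2 and 3 and bars for the mean and SD of 3 libraries. SLC2A1 and KCNK1 were highest in the 3 OSK libraries, SLC4A3 was lowest there, CA9, SLC2A1 and KCNK1 were lowest in GSTA4, BEST1 was highest in GFP, and SLC5A3 had its highest value in WT replicate 1.

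For each of the 7 genes that passed the filter, the genes with the most similar pattern were sought among 13696 genes with a mean of at least 1 CPM. Likeness was the root mean square difference of log2 CPM over the 12 libraries after centring each gene on its mean, and it carries no test. SLC16A1 had the closest match, NCSTN, a gamma-secretase subunit, at 0.0371, with 290 CPM ± 10.4 in OSK and 182 to 191 in the other groups. ATP1B3 was matched by the Wnt receptor FZD7 at 0.107 and the G protein subunit GNAZ at 0.109, where its own spread about the mean was 0.509. FZD7 stood at 7.26 CPM in GSTA4, 12.3 in GFP, 13.5 in OSK and 17.2 in WT. SLC4A4 was matched by the splicing factor SFPQ at 0.0661. The nearest to FXYD5 were ARID5A at 0.166 and GPX1, a glutathione peroxidase, at 0.207, which had 192 CPM ± 6.68 in GSTA4 and 85.1 ± 11.6 in GFP. ATP1B2 had the largest distances, but its own spread about the mean was also the largest, at 2.23. RALGPS2-AS1, an antisense gene, was the nearest at 0.856, followed by the glypican GPC3 at 0.92, which had 51.5 CPM ± 2.14 in GSTA4 and 2.45 to 4.93 in the other groups. The nearest genes to ATP1B1 and SLC12A2 were ARSK at 0.103 and FBXO33 at 0.0905, where the spreads of the genes themselves were 0.249 and 0.199.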

How the data were processed

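The table deposited by the authors holds raw read counts per gene for 12 libraries, as its whole numbers with differing totals show. STAR 2.7.1a, featureCounts 1.6.2 and both human (GRCh38) and mouse builds are named, per the submitters' processing notes. Annotation release and strand setting are not given in the sources used here. Of 60605 lines, 20014 without a symbol (0.485% to 0.822% of reads) were left out. Counts were fitted with edgeR 4.0.16 in R 4.3.3 (limma 3.58.1): filterByExpr, TMM scaling, 1 fit of all 12 libraries with a mean per group, quasi-likelihood tests, and Benjamini-Hochberg adjustment over 15179 genes within a contrast. Each SE is the size of the log2 fold change divided by the square root of the F statistic of that test. For the chosen genes it is given as a description and is not read as a test. The common biological coefficient of variation was 7.91%. CPM are after TMM scaling. The floor of 3 counts covers counting error only. Lengths are unions of GENCODE 29 exons; promoters and positions are from RefSeq GRCh38.p14 tables. The test was checked on simulated data.

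The 9 genes and all lists were chosen with earlier results of these data known. Named by rule were the 9 genes, the other pump and FXYD genes, up to 3 called genes per other list and contrast with the lowest adjusted p and a mean of at least 1 CPM, and the 3 nearest genes by pattern, from which the text takes a part; some of these genes are not reported here. As alternatives, the fit was repeated with DESeq2 1.42.0, with a replicate block, on only the 6 libraries compared and without each library in turn. Scaling was changed to RLE or to library size alone, and the filter was dropped or set at a mean of 1 CPM. The longest transcript as length was added after seeing the data.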

Additional observations from a re-analysis of the deposited data

How the results depend on the processing

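Counts of called transport genes and of all called genes stayed within 1.5 times their value under every alternative run, in each of the 4 contrasts. Leaving out each library in turn gave 27 to 39 transport genes in GSTA4 against GFP, 63 to 77 in OSK against GFP, 23 to 29 in GFP against WT and 59 to 71 in OSK against GSTA4. No called gene named by the rule changed direction. The replicate numbers were not taken to pair the samples. Of 18 same-numbered pairs 3, all with WT replicate 1, had a correlation of deviations above 0.1 (range -0.019 to 0.153), and 6 of 12 libraries matched best with their own number. Replicate 1 was the highest library within each of the 4 groups for ATP1B1, ATP1B3 and SLC12A2. With the replicate block, 36, 74, 34 and 69 transport genes were called in the contrasts in the order above, beside 35, 73, 30 and 70 without it. Of the 7 chosen genes tested, 4, 4, 3 and 5 were called with the block, beside 4, 2, 1 and 5 without it. All called genes were 4734, 7269, 3779 and 7476 of 15179 with the block, beside 4439, 6962, 3369 and 7262 without it. Without a filter 5, 4, 4 and 5 of 9 chosen genes were called, beside 4443, 6993, 3423 and 6945 of 31531 genes. DESeq2 called 4, 1, 1 and 5 of 7, beside 4296, 6848, 3375 and 7060 of 15179. With only the 6 libraries compared, 4 of 7, 4 of 6, 1 of 6 and 6 of 7 were called. All called genes were then 4603 of 14473, 7088 of 14471, 2407 of 14490 and 7795 of 14380. Nothing is read from these counts either. Depth limits AQP1, which had at most 8 reads in a library.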

Other observations

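Of the calcium pumps and exchangers, ATP2B4, a calcium pump of the plasma membrane, had 912 CPM ± 40.6 in GSTA4, 587 ± 39.0 in GFP, 451 ± 57.6 in WT and 455 ± 8.10 in OSK (SD, n = 3 each). It rose in GSTA4 against GFP by 0.64 on the log2 scale (edgeR adjusted p 2.18e-06, SE 0.0768) and in GFP against WT by 0.38 (adjusted p 0.00143, SE 0.0769). SLC8B1, the mitochondrial sodium-calcium exchanger, had 49.0 CPM ± 2.16 in OSK, 21.6 ± 2.36 in GFP and 15.4 ± 0.413 in GSTA4. It rose in OSK against GFP by 1.18 (adjusted p 9.66e-10, SE 0.09) and had a log2 fold change of -0.48 in GSTA4 against GFP (adjusted p 0.000768, SE 0.0976). ATP2A2, the calcium pump of the endoplasmic reticulum, rose in OSK against GFP by 0.46 (adjusted p 3.11e-06, SE 0.061). Of 7 tested genes of this list, 3 rose and 2 fell in OSK against GFP (71.4% called beside 45.9% of all genes). In GSTA4 against GFP 1 rose and 1 fell (28.6% beside 29.2%), and in GFP against WT 2 rose and 0 fell (28.6% beside 22.2%).

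WT replicate 1 was the highest of the WT libraries in several transport genes at once, among them ATP1B1, ATP1B3, SLC12A2, SLC5A3 and SLC6A6, but not in SLC16A1 or FXYD5. These genes were picked out after their values had been seen.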
